A study of Mus musculus with 4 samples.

Results

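The genes of MHC class II antigen presentation were followed in alveolar macrophages, which live in the airspaces of the lung and take up what is inhaled. They were chosen by name: the chains H2-Aa, H2-Ab1 and H2-Eb1, the peptide-exchange subunits H2-DMa, H2-DMb1 and H2-DMb2, the invariant chain Cd74, the class II transactivator Ciita, and the thiol reductase Ifi30. Of these 9 names, 6 had rows in the tag tables (H2-Eb1, H2-DMa, H2-DMb2, Cd74, Ciita and Ifi30). They held 19 tags, 18 of them with a count, out of 30627 tags in all, of which 15785 had a count. H2-Aa, H2-Ab1 and H2-DMb1 had no row under their own names and were not analysed here as such. Among rows that carry LOC names, the deposited annotation column names a class II gene for 4 names. These rows are described beside the members and are always called by their LOC name.

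RNA came from BALB/c mice and was profiled by SAGE (serial analysis of gene expression), in which a short tag beside an NlaIII cutting site is counted for each transcript. Day 21 AM libraries came from wild-type mice that had been given BNL cells, a hepatocellular carcinoma line of the mouse, by the intravenous route 21 days before and that had lung metastases (2 libraries). Pre AM libraries came from untreated wild-type mice without lung metastases (2 libraries), which are not described as sham-injected, so the injection and the metastases cannot be told apart. Whether the libraries of a group are from different mice is not stated in the labels. Each p-value therefore reflects the spread among these libraries alone, and that spread may be technical.

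Classical MHC class II molecules are pairs of an alpha and a beta chain that carry peptides from ingested protein to the cell surface for CD4+ T cells. In the endoplasmic reticulum the pair is held by the invariant chain, Cd74, which is then cut down by proteases in endosomes, and H2-DM, a dimer of H2-DMa with an H2-DMb subunit, exchanges the remaining fragment for a peptide. Ciita switches on the chain genes, Cd74 and the H2-DM genes together, through factors bound at the X and Y boxes of their promoters, and interferon-gamma induces Ciita in macrophages.

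The tags that carry the results below are shown because each names a gene only through its own bases, and because several class II genes have near copies. Tags have 21 bases and follow the CATG of the NlaIII site. Positions come from a match of CATG and tag to GENCODE M21 transcripts on GRCm38. Capitals mark a base at which a tag and a related site differ.
H2-Eb1 tag 1: tcctgcttggcccacatccct
H2-DMa tag: agcagaagtcaggagctgtgc
LOC641240 tag 1: gCactattgtatccaccacct
H2-Ab1, GENCODE, last NlaIII site: gTactattgtatccaccacct
LOC639316 tag, the same bases as H2-DMb1: tggaaagcacgtgcgtgctgG
H2-DMb2 tag: tggaaagcacgtgcgtgctgA
LOC100504404 tag: aagggtattaaaaaacgcaat
The H2-Eb1 tag lies in the 3′ UTR (exon 6 of 6, chr17:34315944-34315968, + strand) at the last NlaIII site before the 3′ end. The H2-DMa tag lies in coding sequence (exon 2 of 6, chr17:34135677-34135701, + strand) at the second of 4 sites from the 3′ end. LOC641240 tag 1 matched no GENCODE transcript exactly. It differed from the last site of H2-Ab1 (3′ UTR, exon 6 of 6, chr17:34269215-34269239, + strand) by T2C, with the GENCODE base first and positions counted from 1 at the tag's 5′ end. The LOC639316 tag is annotated as H2-DMb2 but matched H2-DMb1 exactly (coding sequence, exon 2 of 6, chr17:34155447-34155471, + strand), and it differed from the H2-DMb2 site by A21G. The H2-DMb2 tag matched its own gene (coding sequence, exon 2 of 6, chr17:34147665-34147689, + strand). Because 1 base separates the H2-DMb1 and H2-DMb2 tags, a read with an error at that base counts for the other gene. Both values are uncertain to that extent. Which bases BALB/c mice carry at the marked positions was not examined, so a strain difference there was not tested. The LOC100504404 tag matched H2-Ea-ps, an alpha chain gene that the reference names as a pseudogene (coding sequence, exon 3 of 4, chr17:34342963-34342987, − strand). Whether it is a pseudogene in BALB/c mice was not examined.

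The libraries held 1783814 and 1630776 counts in Day 21 AM and 1962569 and 2198563 in Pre AM. Ctsd took 36.4% and 35.5% of the Day 21 AM counts and 24.9% and 22.4% of the Pre AM counts. Of 15 alveolar macrophage markers, 14 had counts and 12 were tested, of which 0 passed the test in either direction, while Fabp4 was listed at 0 in every library. Their summed level was 1875 and 4355 counts per 1000000 (CPM) in Day 21 AM and 1936 and 3489 CPM in Pre AM. Of these markers, Chil3 had 1834 and 3897 counts in Day 21 AM against 671 and 2921 in Pre AM, and Abcg1 had 489 and 903 in Day 21 AM against 1654 and 2138 in Pre AM. The 6 members with rows held 1.14% and 0.565% of all counts in Day 21 AM and 0.448% and 0.426% in Pre AM.

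H2-Eb1, the beta chain of the I-E class II molecule, was higher in Day 21 AM. It had 16494 and 5191 counts in Day 21 AM and 2634 and 1635 counts in Pre AM. Both Day 21 AM libraries lay above both Pre AM libraries, and the Day 21 AM libraries stood further apart from each other than the Pre AM libraries did. On the CPM scale, with TMM scaling, these were 9414 and 3699 CPM in Day 21 AM and 1293 and 668 CPM in Pre AM. The mean was 6556 ± 4041 CPM in Day 21 AM and 981 ± 441 CPM in Pre AM (SD, n = 2 each). The log2 change, Day 21 AM minus Pre AM here and throughout, was 2.74 ± 0.58 (SE), a 6.69-fold higher level. In edgeR's quasi-likelihood test this gave an adjusted p of 0.0172 (Benjamini-Hochberg over 2993 genes, threshold 0.05), with rank 13 by p among those genes. In bulk RNA, a larger share of cells that express a gene and more RNA per cell cannot be told apart.

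The call for H2-Eb1 depended on single libraries and on how tags were scaled and counted. Without Day 21 AM replicate 1 the log2 change of H2-Eb1 was 1.97 with an adjusted p of 0.329, and without Pre AM replicate 1 it was 3.30 with an adjusted p of 0.382 (edgeR, Benjamini-Hochberg). These fits leave 1 library in a group, which is assumed to vary like the others. With all libraries, the adjusted p in edgeR was 0.194 with total counts alone, 0.0844 with tags that match 1 gene, 0.0979 with the most abundant tag of each gene and 0.112 with last-site tags. The log2 changes in these fits were 2.57, 2.74, 2.72 and 2.85. Every H2-Eb1 tag matched H2-Eb1 alone, so its own counts were unchanged with tags that match 1 gene.

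Among the 4 members tested, H2-Eb1 was the 1 called higher and 0 were called lower. Over all 2993 genes tested, 0.668% were called higher and 0.0668% lower. The members' median log2 change was 0.81, with 3 of 4 above 0, against a median of −0.07 over all tested genes, of which 45.5% were above 0. Both Day 21 AM libraries lay above both Pre AM libraries in CPM for H2-Eb1 and Cd74, a pattern shown by 15.2% of all tested genes. They lay below both Pre AM libraries for H2-DMa, a pattern shown by 16% of all tested genes. Ifi30 overlapped between the groups, and H2-DMb2 and Ciita were below the filter on low counts.

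Markers of other macrophages were also higher in Day 21 AM. Of 13 markers of interstitial or monocyte-derived macrophages, 10 had counts, 8 were tested and 6 were called higher. Of all tested genes, 0.668% were called higher. Folr2 and Lyve1 were at 0 in every library. The summed level of these markers was 2189 and 3316 CPM in Day 21 AM and 63.8 and 131 CPM in Pre AM. The most abundant were Apoe, a lipid carrier, with 3036 and 3811 counts in Day 21 AM and 58 and 192 in Pre AM, and Ms4a7 with 424 and 342 in Day 21 AM and 30 and 17 in Pre AM. The groups were far apart in this sum, most of which was Apoe in every library except Pre AM replicate 1. The part of such cells in the H2-Eb1 result was not tested.

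Markers of dendritic cells and B cells, which carry abundant class II, had few or no counts. Of 14 dendritic cell markers 0 had counts, with Zbtb46, Batf3, Fscn1, Mgl2 and Siglech at 0 in every library and the other 9 not analysed here. Of 12 B cell markers, Cd22 had 3 counts in Pre AM replicate 2 and 0 elsewhere, Cd79a and Cd79b were at 0 in every library, and 8 of the 12 were not analysed here. Of 12 T and NK cell markers 0 had counts, and 7 of them were not analysed here. Of 8 monocyte markers, 4 had counts and 0 of 2 tested passed. Their sum was 35.4 and 56.3 CPM in Day 21 AM and 11.3 and 38.4 CPM in Pre AM, and Plac8, Vcan and F13a1 were at 0. Ly6c2 had 46 and 57 counts in Day 21 AM and 4 and 39 in Pre AM, and Itgal had 14 and 13 in Day 21 AM and 19 and 50 in Pre AM. Alveolar type 2 markers summed to 2.28 and 4.28 CPM in Day 21 AM and 1.96 and 5.32 CPM in Pre AM, and of 8 hepatocyte or hepatoma markers Afp had 3 counts in Pre AM replicate 2 and 0 in each other library. Of the 8 genes in each of these lists, 5 were not analysed here.

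**Figure D1:**
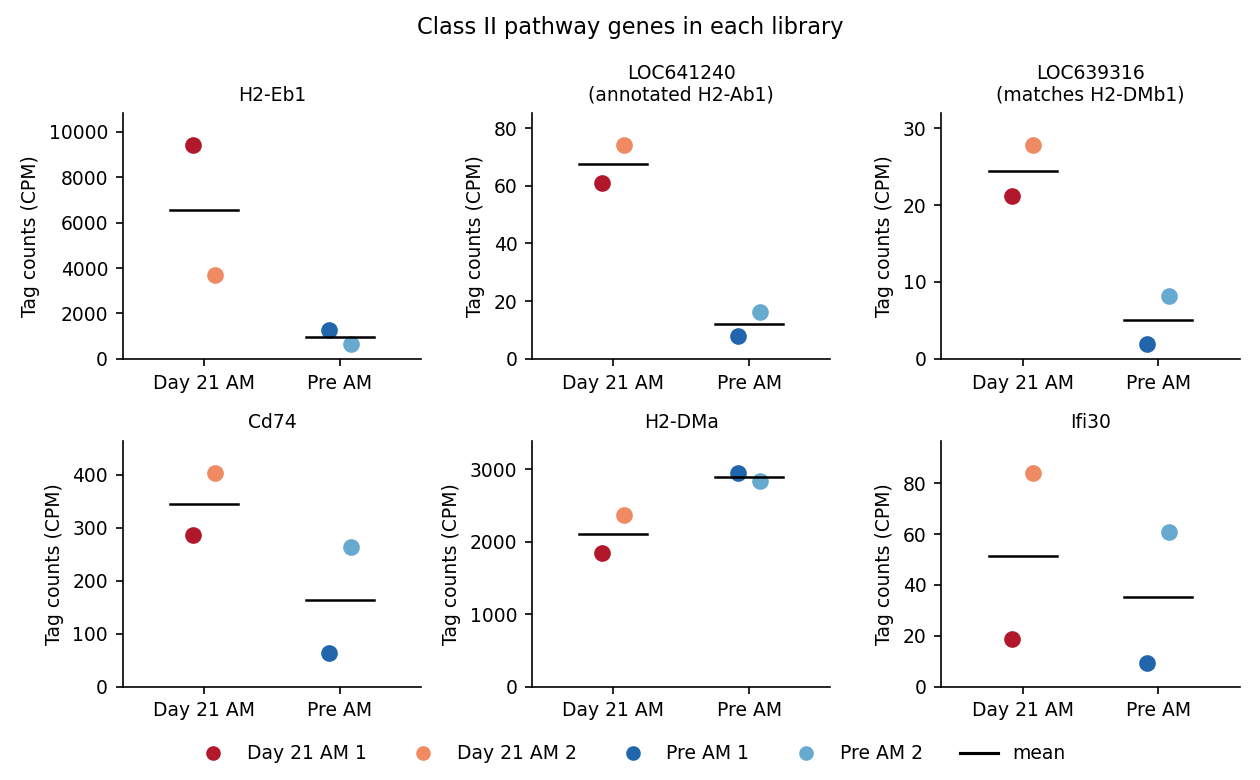
Tag counts per 1000000 (CPM, TMM-scaled, linear axes from 0, a separate range in each panel) of 4 members and 2 LOC rows in each library, with the group mean as a black line (n = 2 libraries a group). H2-Eb1 sits at 9414 and 3699 CPM in Day 21 AM against 1293 and 668 CPM in Pre AM, while H2-DMa sits at 1839 and 2376 CPM in Day 21 AM against 2953 and 2834 CPM in Pre AM.

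LOC641240 and LOC639316, rows that carry class II annotation, lay above the Pre AM libraries in both Day 21 AM libraries, without passing the test. This pattern was shown by 15.2% of all tested genes. LOC641240, annotated as H2-Ab1, the beta chain of the I-A molecule, had 107 and 104 counts in Day 21 AM and 16 and 40 counts in Pre AM over its 2 tags. The Day 21 AM libraries were close to each other and the groups did not overlap. Its mean was 67.6 ± 9.22 CPM in Day 21 AM and 12.1 ± 6.01 CPM in Pre AM (SD, n = 2 each), a log2 change of 2.47 ± 0.72 (SE). The adjusted p was 0.149 (edgeR's quasi-likelihood test, Benjamini-Hochberg). With single libraries left out the log2 change ran from 2.05 to 3.12, and the adjusted p was 0.0257 without Pre AM replicate 2 and 0.358 to 0.9998 without each other library (edgeR). LOC639316, with the tag of H2-DMb1, had 37 and 39 counts in Day 21 AM and 4 and 20 counts in Pre AM. The groups did not overlap, and Pre AM replicate 1 was the lowest library. Its mean was 24.5 ± 4.72 CPM in Day 21 AM and 5.07 ± 4.39 CPM in Pre AM (SD, n = 2 each), a log2 change of 2.23 ± 0.81 (SE) with an adjusted p of 0.453 (edgeR, Benjamini-Hochberg). With single libraries left out the log2 change ran from 1.58 to 3.62, and the adjusted p was 0.0238 without Pre AM replicate 2 and 0.427 to 0.9998 without each other library (edgeR). LOC100504404, with the tag of H2-Ea-ps, had 15 and 5 counts in Day 21 AM and 3 and 2 counts in Pre AM, too few for the test. LOC100505003, whose tag matches both H2-DMb1 and H2-DMb2, was listed at 0 in every library.

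H2-DMa, the alpha subunit of the peptide exchange dimer, was lower in Day 21 AM without passing the test. It had 3223 and 3334 counts in Day 21 AM and 6017 and 6932 counts in Pre AM. Both Day 21 AM libraries were below both Pre AM libraries, in counts and in CPM. The mean was 2108 ± 379 CPM in Day 21 AM and 2894 ± 83.8 CPM in Pre AM (SD, n = 2 each). The log2 change was −0.46 ± 0.52 (SE) with an adjusted p of 0.999 (edgeR, Benjamini-Hochberg), and it ran from −0.62 to −0.23 when single libraries were left out. H2-DMb2, its partner subunit, had 0 and 5 counts in Day 21 AM and 2 and 6 counts in Pre AM, which overlap.

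Cd74, the invariant chain, had 501 and 567 counts in Day 21 AM and 129 and 644 counts in Pre AM. In raw counts Pre AM replicate 2 was the highest library and Pre AM replicate 1 the lowest. Scaled, these were 286 and 404 CPM in Day 21 AM and 63.3 and 263 CPM in Pre AM, so the groups did not overlap, by a small margin. The mean was 345 ± 83.5 CPM in Day 21 AM and 163 ± 141 CPM in Pre AM (SD, n = 2 each). The log2 change was 1.08 ± 0.66 (SE), with an adjusted p of 0.999 (edgeR's quasi-likelihood test, Benjamini-Hochberg). It was 2.47 without Pre AM replicate 2 and 0.39 without Pre AM replicate 1, with adjusted p-values of 0.081 and 0.997 in edgeR.

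Ifi30, a lysosomal reductase that opens disulphide bonds of ingested proteins, had 33 and 118 counts in Day 21 AM and 19 and 149 counts in Pre AM. Replicate 2 was the higher library in each group, and the groups overlapped. The log2 change was 0.54 ± 0.80 (SE) with an adjusted p of 0.999 (edgeR, Benjamini-Hochberg), and its sign depended on the library left out (−0.87 without Day 21 AM replicate 2 and 2.48 without Pre AM replicate 2). Ciita has 1 listed tag, in the 3′ UTR (exon 19 of 19, chr16:10526143-10526167, + strand), and it was listed at 0 in all 4 libraries. No tag in any library has a count of 1, so a listed 0 is taken as 0 or 1 reads. That allows up to 4.74 counts per library with 95% confidence, or 2.66 and 2.91 CPM of the library total in Day 21 AM and 2.42 and 2.16 CPM in Pre AM. These limits cover counting error only. A change in Ciita between levels under these limits was not detectable at this depth.

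**Figure D2:**
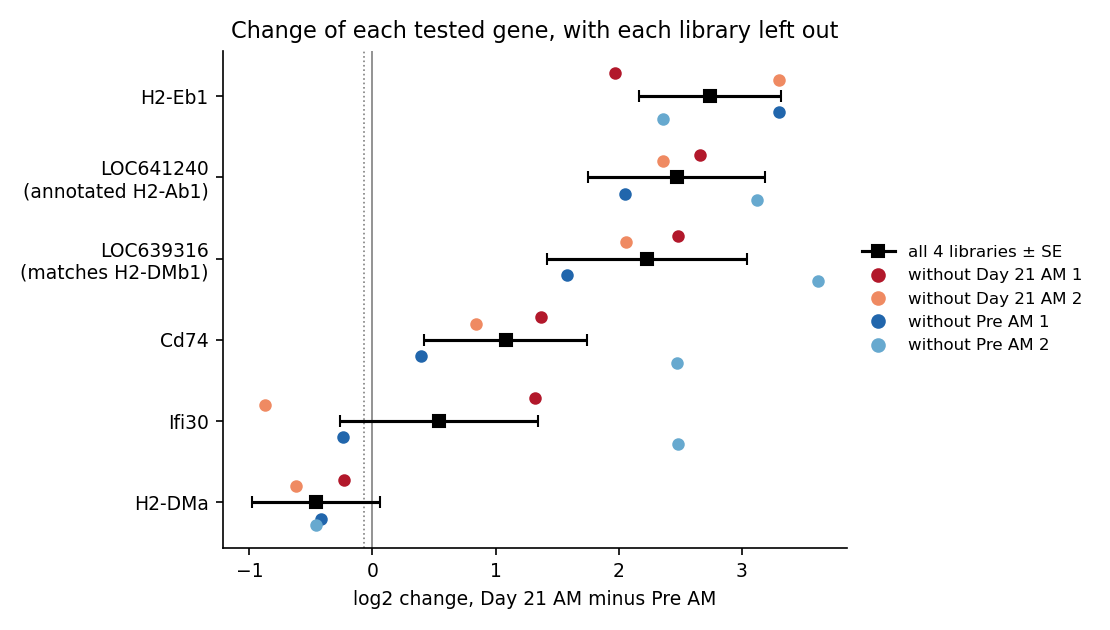
Log2 change (Day 21 AM minus Pre AM, edgeR fit) of the tested members and LOC rows: the black square is the fit on 4 libraries with its SE, and coloured points are fits with 1 library left out. The dotted line is the median of all tested genes (−0.07). H2-Eb1 keeps a change between 1.97 and 3.30, whereas Ifi30 runs from −0.87 to 2.48.

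Single tags were also tested, over 3907 tags, of which 0.358% were called higher and 0% lower in Day 21 AM by edgeR (14 tags higher). Of the member tags, 8 were tested and 0 were called by the same test, with 1 at an unadjusted p under 0.05. DESeq2 called 1 member tag and limma-voom 0, and with single libraries left out edgeR called 0 to 2. H2-Eb1 tag 1 held nearly all counts of the gene, with 16481 and 5185 counts in Day 21 AM and 2634 and 1632 counts in Pre AM. Its log2 change was 2.70 ± 0.62 (SE), close to that of the gene, and its adjusted p was 0.124 (edgeR, Benjamini-Hochberg over all tags). H2-Eb1 tag 2, in exon 1, had 9 and 6 counts in Day 21 AM and 0 and 3 in Pre AM, and H2-Eb1 tag 3 had 4 and 0 counts in Day 21 AM and 0 in both Pre AM libraries.

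Cd74 differed from H2-Eb1 in where along the transcript its tags lay. Its tag at the last NlaIII site, in the 3′ UTR (exon 8 of 8, chromosome 18), had 288 and 165 counts in Day 21 AM and 115 and 191 counts in Pre AM. Scaled to CPM with the gene-level factors, the last site had 164 and 118 CPM in Day 21 AM and 56.4 and 78.1 CPM in Pre AM, and the groups did not overlap. Its tags at sites further upstream, in the coding exons, summed to 213 and 402 counts in Day 21 AM and 14 and 453 counts in Pre AM. Pre AM replicate 1 was nearly without upstream tags, and Pre AM replicate 2 had the most in counts. The last site averaged 141 ± 33.1 CPM in Day 21 AM and 67.3 ± 15.3 CPM in Pre AM (SD, n = 2 each), a ratio of 2.10. The upstream sites averaged 204 ± 117 CPM in Day 21 AM and 96.1 ± 126 CPM in Pre AM (SD, n = 2 each), a ratio of 2.12. The spread between the Pre AM libraries thus lay mostly in the upstream tags. The last-site tag alone had a log2 change of 1.06 ± 0.64 (SE) in the tag test, with an adjusted p of 0.999 (edgeR, Benjamini-Hochberg).

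The share of Cd74 counts at the last site was 57.5% (exact 95% binomial interval 53.0% to 61.9%) and 29.1% (25.4% to 33.0%) in Day 21 AM. In Pre AM it was 89.1% (82.5% to 93.9%) and 29.7% (26.1% to 33.4%). The replicate 1 libraries were higher than the replicate 2 libraries in both groups. Ifi30 had shares of 27.3% (13.3% to 45.5%) and 22.9% (15.6% to 31.5%) in Day 21 AM and 68.4% (43.5% to 87.4%) and 27.5% (20.5% to 35.4%) in Pre AM by the same method, again with Pre AM replicate 1 the highest. H2-Eb1 had 99.8% or more at the last site in every library. Over 606 genes with at least 50 counts in every library and tags of both kinds, the median share was 93.2% and 90.3% in Day 21 AM and 95.7% and 90.5% in Pre AM. The order of the libraries was thus the same for the typical gene as for Cd74 in placing Pre AM replicate 1 highest. The part that the tag position plays in the Cd74 and Ifi30 values was not tested.

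**Figure D3:**
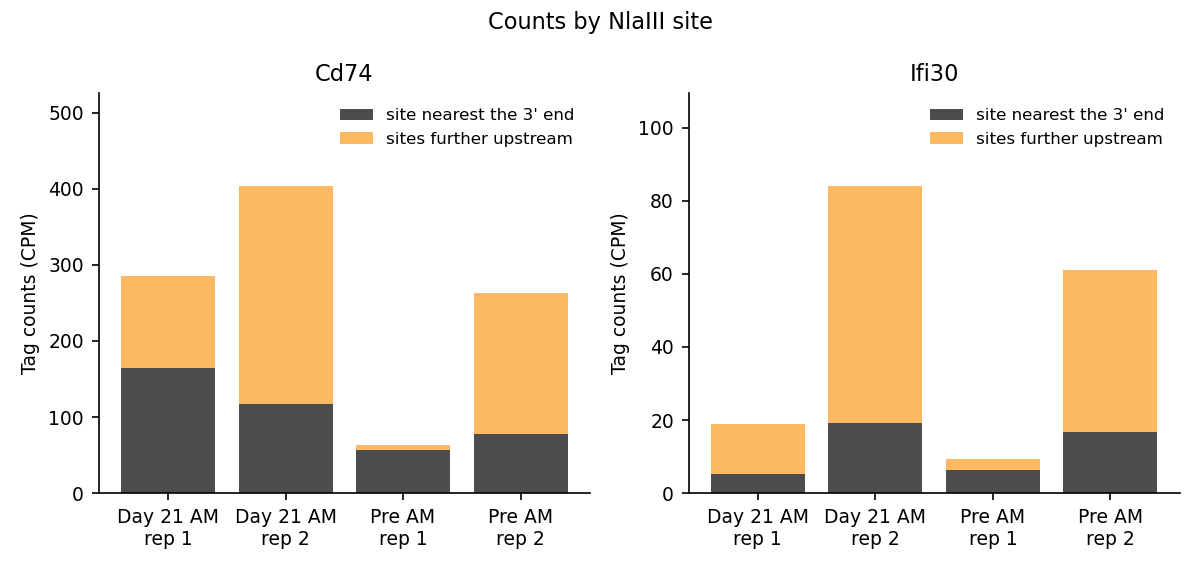
Tag counts per 1000000 (CPM) of Cd74 and Ifi30 in each library, split into the last NlaIII site (dark) and all sites further upstream (light), stacked from 0. For Cd74 the dark bars are 164 and 118 CPM in Day 21 AM against 56.4 and 78.1 CPM in Pre AM, and the light bars range from 6.87 CPM in Pre AM replicate 1 to 286 CPM in Day 21 AM replicate 2.

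Neutrophil markers followed the order of the libraries in Ifi30 and in the upstream Cd74 tags, with a summed level of 75.9 and 276 CPM in Day 21 AM and 10.8 and 157 CPM in Pre AM over the 5 of 8 with counts. Cxcr2 was at 0, and of 2 tested 0 passed. Camp had 121 and 352 counts in Day 21 AM and 19 and 343 in Pre AM, and S100a9 had 9 and 27 in Day 21 AM and 0 and 30 in Pre AM. This order was not particular to neutrophil markers. The alveolar macrophage marker Chil3 had it too, with 1047 and 2777 CPM in Day 21 AM and 329 and 1194 CPM in Pre AM, while Abcg1 did not. The part of neutrophil RNA in the Ifi30 and Cd74 values was not tested.

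Among the members that share the regulator Ciita, H2-Eb1 alone passed the test. In simulated data the test picked out 7 of 50 genes at a 4-fold difference, so a gene that did not pass may still differ. H2-Eb1 had a log2 change of 2.74, Cd74 had 1.08 and H2-DMa had −0.46. LOC641240, a class II gene by annotation only, and LOC639316, with the tag of H2-DMb1, had 2.47 and 2.23 and did not pass. The value of H2-DMa lay less than its SE of 0.52 from 0, so its side is not settled. The change of H2-Eb1 exceeded that of Cd74 by 1.66 on the log2 scale, with no test of the difference, and the difference was −0.11 without Pre AM replicate 2. Ratios of counts within a library do not depend on its scaling, and only their differences between libraries are read here. H2-Eb1 over Cd74 was 32.9 and 9.15 in Day 21 AM and 20.4 and 2.54 in Pre AM, which overlap, with replicate 1 the higher in each group. Against the last-site tag of Cd74 alone, the ratio was 57.3 and 31.5 in Day 21 AM and 22.9 and 8.56 in Pre AM, which do not overlap. H2-Eb1 over LOC641240 was 154 and 49.9 in Day 21 AM and 165 and 40.9 in Pre AM, again overlapping and again higher in replicate 1. The mean log2 ratio of H2-Eb1 to LOC641240 differed between the groups by 0.10, less than the SD of 1.29 within groups.

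Ratios against H2-DMa separated the groups. H2-Eb1 over H2-DMa was 5.12 and 1.56 in Day 21 AM and 0.438 and 0.236 in Pre AM, a mean log2 difference of 3.13 against an SD within groups of 0.97. LOC639316 over H2-DMa was 0.0115 and 0.0117 in Day 21 AM and 0.000665 and 0.00288 in Pre AM, a mean log2 difference of 3.06 against an SD of 1.06. Neither pair overlapped between the groups. In CPM, H2-Eb1 and LOC639316 were higher and H2-DMa lower without overlap, so both ratios had to part the groups. They restate those values and are not a further result. LOC641240 over Cd74 was 0.214 and 0.183 in Day 21 AM and 0.124 and 0.0621 in Pre AM, also without overlap, with a mean log2 difference of 1.17 against an SD of 0.51. With 2 libraries in each group, an exact two-sided permutation test of a ratio cannot go below p = 0.333, so none is given. How often ratios of other gene pairs part the groups was not counted. Of single tested genes, 15.2% were higher and 16% lower in Day 21 AM without overlap.

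**Figure D4:**
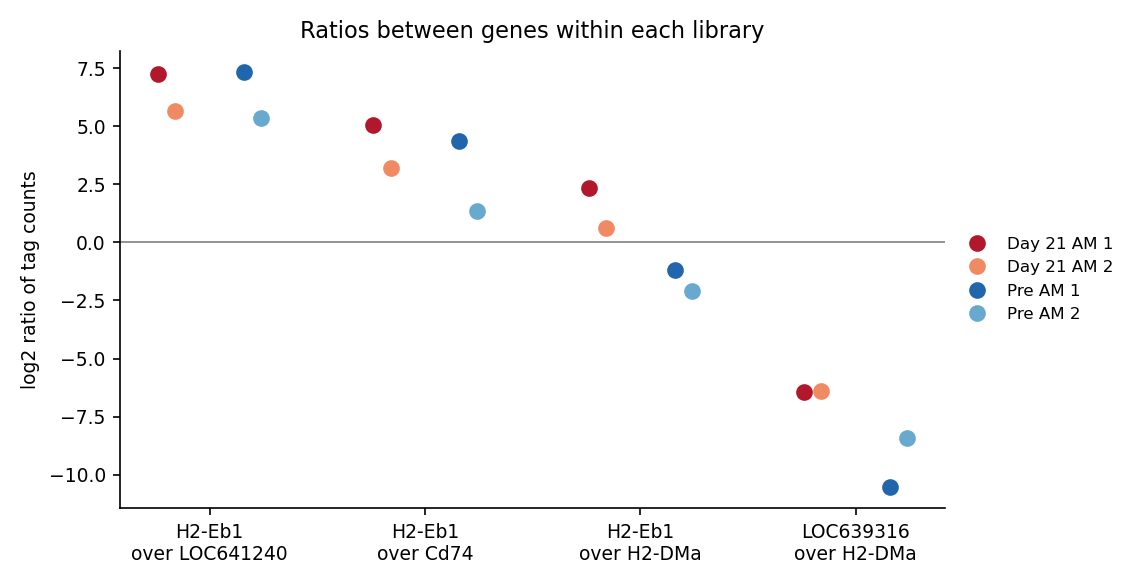
Log2 ratio of tag counts between pairs of genes within each library, with Day 21 AM points left of Pre AM points for each pair and the line at 0 marking equal counts. H2-Eb1 over LOC641240 and H2-Eb1 over Cd74 (all tags of each gene) overlap between the groups, and both ratios over H2-DMa are higher in each Day 21 AM library than in either Pre AM library.

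Promoters of RefSeq genes (GRCm38.p6) were searched for the X box core (AGNNACN followed by GATG) and the Y box core GATTGG on both strands, from 250 bases before to 50 bases after each start. H2-Eb1 and H2-DMb1 had both, and their 150 bases before the start are shown with the X box core and then the Y box core in capitals.
H2-Eb1, chr17:34305717-34305866, + strand: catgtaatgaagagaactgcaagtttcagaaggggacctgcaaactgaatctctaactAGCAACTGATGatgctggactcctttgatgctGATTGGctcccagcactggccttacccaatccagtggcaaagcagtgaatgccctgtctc
H2-DMb1, chr17:34153041-34153190, + strand: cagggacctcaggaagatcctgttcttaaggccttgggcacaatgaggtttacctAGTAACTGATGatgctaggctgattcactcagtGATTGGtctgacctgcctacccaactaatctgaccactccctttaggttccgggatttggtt
The X box core began 92 bases before the start in H2-Eb1 and 95 bases before it in H2-DMb1, and the Y box core in capitals began 60 and 62 bases before the start. H2-Eb1 had a further Y box core match on the other strand, 35 bases before the start, left in lower case. The X box core occurred in 0.968% of 32851 promoters, the Y box core in 16.1%, and both in 0.149%. The Y box core alone occurred in H2-Aa, H2-DMb2 and 1 of the windows of H2-DMa, and Ifi30 had neither core. The shorter CCAAT core ATTGG, which the Y box core contains, occurred in 37.4% of promoters. The X2 box core TGACGT occurred in 7.51% of promoters and, among the members, in H2-Aa. The interferon-gamma activated site TTCNNNGAA occurred in 8.3% of promoters and, among the members searched, in H2-DMb2. H2-Ab1, Cd74 and Ciita had no entry among these promoters, so none of these motifs was searched in them. These matches are letters in a window and not measured sites.

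Genes around the class II pathway were read from the same fit. Among regulators that bind class II promoters or act with Ciita, 7 of 11 had counts, 3 were tested and 0 passed in either direction, with a median log2 change of −0.22. Irf8, a transcription factor of macrophages and dendritic cells, had 21 and 45 counts in Day 21 AM and 11 and 32 in Pre AM. Spi1, which encodes the macrophage factor PU.1, had 172 and 146 counts in Day 21 AM and 235 and 405 in Pre AM. Rfxank, a subunit of the RFX complex at the X box, had 53 and 30 counts in Day 21 AM and 83 and 48 in Pre AM. None of these 3 passed the test, with log2 changes of 1.23 ± 0.78, −0.47 ± 0.61 and −0.22 ± 0.71 (SE).

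The interferon-gamma input to Ciita was measured thinly. Of 10 genes, 9 had counts, 4 were tested and 0 passed, with a median log2 change of 0.22. Ifngr2, a subunit of the interferon-gamma receptor, had 59 and 49 counts in Day 21 AM and 47 and 66 in Pre AM, a log2 change of 0.45 ± 0.68 (SE). The kinase Jak1, which acts at the receptor, had 6 and 25 counts in Day 21 AM and 0 and 25 in Pre AM. Of 24 genes that interferon-gamma induces, 13 had counts, 8 were tested and 0 passed, with 4 of 8 above 0 and a median of 0.14. Tap2, a subunit of the peptide transporter of class I presentation, had 22 and 47 counts in Day 21 AM and 9 and 14 in Pre AM, with a log2 change of 2.16 ± 0.79 (SE) and an adjusted p of 0.483 (edgeR, Benjamini-Hochberg). Tapbp, which loads class I molecules, had a log2 change of 0.85 ± 0.63, and Psme1, a proteasome activator subunit, had −0.98 ± 0.84 (SE).

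The proteases that cut the invariant chain and antigens were mostly on the higher side, with 8 of 10 tested genes above 0 and a median log2 change of 0.79, but 0 passed the test in either direction. Lgmn, the asparagine endopeptidase of endosomes, had 329 and 370 counts in Day 21 AM and 52 and 169 in Pre AM. Ctsb, a lysosomal cysteine protease, had 6563 and 6696 counts in Day 21 AM and 2652 and 3919 in Pre AM. Ctsl, which removes the invariant chain in some cells, had 57 and 51 counts in Day 21 AM and 11 and 34 in Pre AM. Each of the 3, named for the smallest p in the list, was higher in both Day 21 AM libraries than in either Pre AM library, as were 15.2% of all tested genes. Their log2 changes were 2.25 ± 0.67, 1.55 ± 0.52 and 1.82 ± 0.75 (SE), with adjusted p-values of 0.163, 0.350 and 0.684 in edgeR (Benjamini-Hochberg).

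Among genes of class II trafficking and its partners at the surface, 14 of 15 were tested, 1 rose and 0 fell. Of all tested genes, 0.668% were called higher and 0.0668% lower. The median log2 change of the list was 0.02. The gene that rose was Cd63, a tetraspanin of the endosomal compartments in which class II molecules are loaded. It had 715 and 852 counts in Day 21 AM and 18 and 27 counts in Pre AM. The log2 change was 5.66 ± 0.73 (SE) with an adjusted p of 3.95e-05 (edgeR, Benjamini-Hochberg), and the groups were far apart. The tetraspanin Cd82 had 482 and 763 counts in Day 21 AM and 153 and 764 in Pre AM. Ap2m1, a subunit of the clathrin adaptor for uptake from the surface, had 2911 and 2965 counts in Day 21 AM and 11740 and 4772 in Pre AM. The tetraspanin Cd151 had 79 and 38 counts in Day 21 AM and 196 and 131 in Pre AM. Cd82, Ap2m1 and Cd151 did not pass, with log2 changes of 1.08 ± 0.66, −1.03 ± 0.56 and −1.05 ± 0.66 (SE).

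Costimulatory and contact genes gave no call. Of 12 genes, 5 had counts, 3 were tested and 0 passed, with a median log2 change of −0.15. Cd274, which encodes the inhibitory ligand PD-L1, had 26 and 60 counts in Day 21 AM and 21 and 80 in Pre AM. The adhesion molecule Icam1 had 168 and 252 counts in Day 21 AM and 275 and 417 in Pre AM, and the T cell ligand Icosl had 26 and 16 in Day 21 AM and 53 and 26 in Pre AM. All 3 overlapped between the groups in CPM. Of 7 other class II genes listed by symbol, 1 had counts and 0 were tested. It was Marchf8, a ubiquitin ligase of membrane proteins, named after its values were seen, with 10 and 2 counts in Day 21 AM and 0 and 5 in Pre AM.

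The genes whose pattern over the 4 libraries was most like that of the class II chain and the invariant chain were sought among 2126 genes with a mean of at least 10 CPM. The measure was the root mean square difference of log2 CPM, centred for each gene, from the mean of H2-Eb1 and Cd74. Among the nearest were Cln3, a lysosomal membrane protein, with a difference of 0.24, Dnajc5, a chaperone of secretory vesicles (0.28), Plbd2, a lysosomal phospholipase-like protein (0.28), and Ifi27l2a, an interferon-induced gene (0.30). Ifi27l2a had 334 and 204 counts in Day 21 AM and 65 and 72 in Pre AM. The likeness rests on 4 libraries and is a description.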

How the data were processed

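The authors deposited raw tag counts, per the file headers, for tags of 21 bases from 2 Day 21 AM and 2 Pre AM libraries. Per the labels' protocols, cDNA was cut with NlaIII, tags were released with EcoP15I and amplified by PCR. The submitters' processing notes name mm9 as the build. The tool that matched tags is not given in the sources used here. No tag has a count of 1. No molecular identifiers were used, so intervals cover counting error only. The libraries held 1630776 to 2198563 counts.

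Tags were named through their RefSeq accession (29346 tags), symbol (429) or older symbol (115), or kept the deposited symbol (737), and were summed per gene. The 9 members and all lists were chosen with earlier results of these data known. Tests used edgeR 4.0.16 (R 4.3.3): quasi-likelihood test, TMM, filterByExpr (minimum count 10, minimum total 15), group as the only term, and Benjamini-Hochberg adjustment over all genes or tags. TMM factors were 0.988 and 0.864 in Day 21 AM and 1.05 and 1.12 in Pre AM. Standard errors are |log2 change| / √F. The procedure was tested on simulated data, with 50 genes or tags at each size of difference. The gene test picked out 0 at 2-fold, 7 at 4-fold, 26 at 8-fold and 47 at 16-fold. The tag test picked out 0 at 4-fold and 13 at 8-fold. Most differences of 4-fold or less were thus missed, and a gene or tag that did not pass may still differ.

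Named genes were the members, every called gene and the 3 tested genes of smallest p of each pathway list, the 5 genes of most like pattern, and the 2 most abundant markers of each list with counts. A few of these genes are not reported here. The pattern used log2(CPM + 1) of H2-Eb1 and Cd74, since the H2-Aa and H2-Ab1 names had no row. Alternatives used limma 3.58.1 and DESeq2 1.42.0, other scalings and filters, other ways of counting tags, a replicate block and each library left out.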

Additional observations from a re-analysis of the deposited data

How the results depend on the processing

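H2-Eb1 stayed higher in Day 21 AM under each of 17 alternatives and passed 0.05 in 11 of them, with adjusted p from 9.34e-05 to 0.382. Its call was lost with total counts alone (0.194), with tags that match 1 gene (0.0844), with the most abundant tag of each gene (0.0979), with last-site tags (0.112, chosen after seeing the data) and without either replicate 1. In each of these fits 0 members were called higher, and with libraries left out 0 to 1. Total counts alone moved the median of all genes to −0.29. Cd74 stayed above 0 and H2-DMa below 0 in every alternative run, none past the threshold. H2-Eb1 minus Cd74 ran from −0.11 to 2.90 with libraries left out. Ifi30 turned to −0.87 without Day 21 AM replicate 2 and to −0.24 without Pre AM replicate 1, in a range of −0.87 to 2.48. The cause of these moves was not tested.

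All genes called higher (20) became 9 with total counts, limma-voom or the most abundant tag, 36 with no filter, 11 with tags that match 1 gene, 7 with last-site tags, and 0 to 63 with libraries left out. All genes called lower (2) became 0 with upper quartile scaling, total counts, tags that match 1 gene, the most abundant tag or last-site tags, 5 with no filter, 4 with DESeq2, and 0 to 18 with libraries left out. Tags called higher (14) became 30 with no filter, 26 with DESeq2, 5 with limma-voom, and 16 to 71 with libraries left out. Tags called lower (0) became 4 with no filter or DESeq2 and 1 to 25 with libraries left out. Member tags called higher (0) became 1 with no filter or DESeq2 and 0 to 2 with libraries left out. Pathway list genes called higher (1) became 0 to 4 with libraries left out.

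The replicate numbers of the groups are shared as numbers alone. Deviations of the libraries with the same number correlated at 0.54, a hint from the data. With the replicate block, 31 genes were called higher and 9 lower, 110 tags higher and 46 lower, 3 member tags higher and 2 pathway list genes higher, and LOC641240 had an adjusted p of 0.0287 (edgeR).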
